A study of Mus musculus with 25 samples.

Results

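The 9 genes described here were grouped as markers of mesangial cells, pericytes and smooth muscle, and were followed in ribosome-bound RNA of the mouse kidney. They are Acta2, Tagln, Cnn1, Tpm1, Tpm2, Rgs5, Notch3, Pdgfrb and Pdgfra. They were chosen by name with earlier results of these data known, as were the gene lists used further below. Counts and medians set beside those of all genes are therefore descriptions. Each gene was read from the probe set that carries its symbol alone, taking the brightest one over all 25 arrays where there were several. Of the 9 genes, 8 had such a probe set, among 17097 genes in all, and all 8 passed the filter that left out the dimmest 30% of genes. Tagln lies on the array only in a probe set annotated to both Tagln and Pcsk7, so it has no value here. Cnn1 passed the filter by 0.05 and Pdgfra by 0.57 on the log2 scale.

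The RNA came from translating ribosome affinity purification (TRAP), in which a tagged ribosomal protein pulls down ribosomes with the RNA they are translating. All mice carried the transgene Col1a1-eGFPL10a, green fluorescent protein fused to ribosomal protein L10a behind a collagen 1 alpha 1 promoter element, on a C57/129sv background. Knock-in mice (KI) came from a line written Actn4+/tm1.1Plk, with a point mutation in alpha-actinin-4, an actin crosslinker of podocyte foot processes, and control mice (WT) carried the transgene without it. How many mutant alleles the sampled KI animals carried is not stated beyond that name, and sex is labelled unknown. There were 4 KI and 4 WT arrays at 2 weeks, 4 KI and 5 WT arrays at 5 weeks, and 4 KI and 4 WT arrays at 44 weeks. The labels call the material kidney podocytes and leave it unsaid whether the arrays come from separate animals, so the p-values cover only the spread among these arrays. Because a collagen promoter drives the tag, any cell that uses that promoter element can contribute ribosomes.

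Most of the 9 genes are used as markers of the contractile cells that support capillaries, while Tpm1 is also made in podocytes and many other cells. Acta2 encodes smooth muscle alpha-actin, Tagln and Cnn1 encode the actin-binding proteins transgelin and calponin 1, and Tpm1 and Tpm2 encode tropomyosins, which lie along actin filaments. Rgs5 encodes a regulator that shortens G protein signalling in pericytes. Notch3 encodes a receptor needed for the maturation of arterial smooth muscle, and Pdgfrb the receptor through which PDGF-B recruits mesangial cells and pericytes to the growing glomerulus. Pdgfra encodes the related receptor of interstitial and fibroblast-like cells. Contractile genes of this kind are switched on by serum response factor, SRF, together with myocardin or its relatives, at a sequence called the CArG box, a run of A and T bases between CC and GG.

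The promoter of Acta2 is shown because it carries the CArG-like elements by which smooth muscle actin is known to be driven, and because Acta2 gave the smallest adjusted p of the 8 genes. The sequence is the 250 bases before the transcription start in RefSeq, build GRCm38.p6, minus strand, chr19:34255374-34255623. Capitals mark the matches to a CArG box with 1 G or C inside its A and T run.
Acta2 promoter: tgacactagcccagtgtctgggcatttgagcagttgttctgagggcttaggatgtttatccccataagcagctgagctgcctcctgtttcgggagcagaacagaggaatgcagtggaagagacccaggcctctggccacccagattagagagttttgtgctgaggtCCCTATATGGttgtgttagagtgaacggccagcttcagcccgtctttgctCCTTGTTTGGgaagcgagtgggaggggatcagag
The capitals lie at bases -84 to -75 and -34 to -25 from the start. Neither is a strict CArG box, which none of the 7 members with a promoter searched here held on either strand, against 1.47% of all 32851 promoters of that length. The looser form, chosen after the strict one gave no match, occurred in 7.24% of all promoters and at least 2 times in 0.548%, and Acta2 was the only member of the 7 with it. The core RBPJ motif TGGGAA, the site read by Notch signalling, occurred on either strand in Acta2 and Tpm1, against 21.6% of promoters, and its copy in Acta2 at bases -27 to -22 overlaps the capitals. The E-box CANNTG was present in 5 of the 7, against 66.2% of promoters. A match of letters is a description of the sequence and does not show that a factor binds there. Tpm2, whose values followed Acta2 most closely among the members, is printed for comparison over the same window on chr4:43523555-43523804, minus strand. It holds no CArG-like match, so it has no capitals.
Tpm2 promoter: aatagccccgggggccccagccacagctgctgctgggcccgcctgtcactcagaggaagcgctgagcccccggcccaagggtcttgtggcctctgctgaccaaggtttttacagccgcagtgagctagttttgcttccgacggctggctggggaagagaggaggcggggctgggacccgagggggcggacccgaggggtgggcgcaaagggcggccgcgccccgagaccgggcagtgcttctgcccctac

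Podocyte genes were bright in every group. Group means of Synpo, Podxl and Wt1, which encode an actin-organising protein, the glycocalyx protein podocalyxin and a podocyte transcription factor, lay between 12.05 and 12.89 on the log2 scale, and those of the slit diaphragm gene Nphs1 between 9.85 and 11.09. Arrays of the same group correlated with each other at Pearson r of 0.97 to 0.994 over the brightest probe set of each gene. No 2 arrays of a group were duplicates, and arrays of different groups were not compared in this way. A limma model of the 6 group means was fitted across 11968 genes, and a gene was called at a Benjamini-Hochberg adjusted p under 0.05. In RNA pulled down from many cells, fewer cells of a type, less ribosome tag per cell and less RNA per cell cannot be told apart. That holds for every level below.

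The main pattern was one of age. Of the 8 genes, 7 fell between 2 and 5 weeks in WT, by 1.51-fold for Pdgfrb to 3.32-fold for Notch3, and the exception was Tpm1. Over all genes, 33.9% were called in that comparison and 21.7% were called lower. The median log2 difference was -1.10 for the 8 genes and -0.06 for all genes. In KI, 3 of 8 fell between 2 and 5 weeks, namely Acta2, Rgs5 and Tpm2, where 13.7% of all genes were called and 8.29% were lower, and the medians were -0.51 and 0.02. The plot of values on each array gives all 8 genes.

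**Figure D1:**
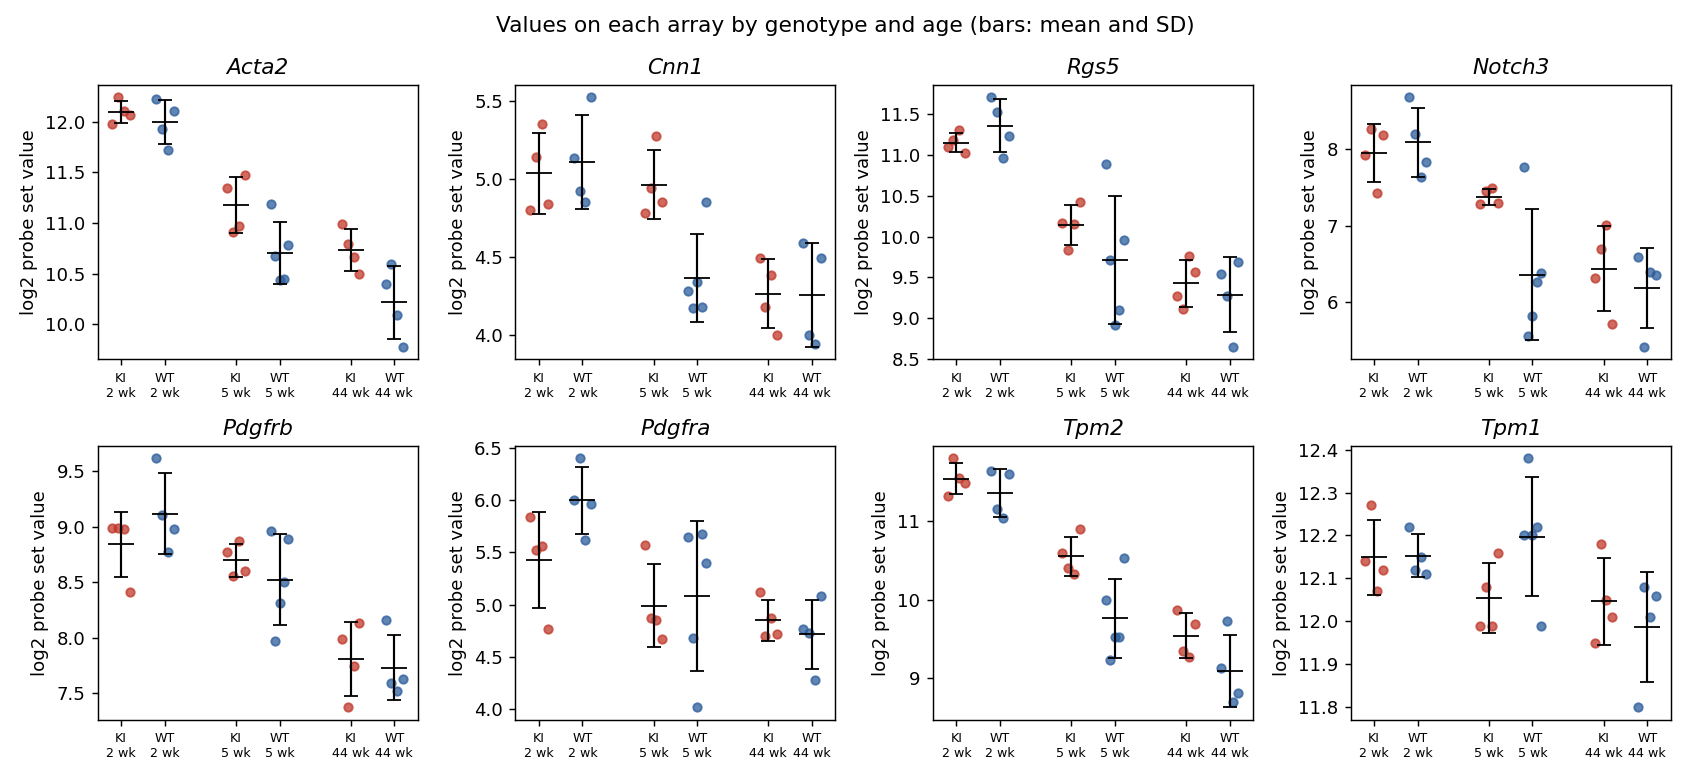
Log2 probe set values (vertical axes, a separate scale for each gene) of the 8 genes on every array, with KI (red) and WT (blue) at 2, 5 and 44 weeks; points are arrays, horizontal bars are means and whiskers are SD. Every gene but Tpm1 has its highest group means at 2 weeks, and the WT arrays of 5 weeks spread widely for Notch3, Rgs5 and Pdgfra.

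Among the contractile genes, Acta2 fell with age in both genotypes. At 2 weeks its log2 values were 11.98, 12.24, 12.11 and 12.07 on KI arrays and 12.22, 11.93, 11.72 and 12.11 on WT arrays. At 5 weeks they were 11.35, 10.91, 10.97 and 11.47 on KI arrays and 11.19, 10.67, 10.44, 10.45 and 10.78 on WT arrays, and at 44 weeks 10.99, 10.79, 10.66 and 10.50 on KI arrays and 10.40, 10.60, 10.09 and 9.78 on WT arrays. No array of 5 weeks reached any array of 2 weeks in either genotype. The difference of 5 against 2 weeks was -0.92 ± 0.18 in KI (SE, adjusted p = 0.00199) and -1.29 ± 0.17 in WT (SE, adjusted p = 2.26e-05), which are falls of 1.90-fold in KI and 2.45-fold in WT. In the order of group means, KI and WT of 2 weeks stood on top with overlapping arrays, then a gap without overlap, then KI of 5 weeks, KI of 44 weeks, WT of 5 weeks and WT of 44 weeks, each overlapping its neighbour.

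Tpm2, the beta-tropomyosin of smooth and slow muscle, went the same way with a larger range. Its log2 values at 2 weeks were 11.33, 11.81, 11.55 and 11.49 on KI arrays and 11.64, 11.16, 11.05 and 11.61 on WT arrays. At 5 weeks they were 10.59, 10.41, 10.33 and 10.90 on KI arrays and 9.99, 9.23, 9.52, 9.52 and 10.53 on WT arrays. By 44 weeks they were 9.87, 9.34, 9.26 and 9.69 on KI arrays and 9.12, 9.72, 8.69 and 8.80 on WT arrays. The arrays of 5 weeks lay below all those of 2 weeks in both genotypes. Between 2 and 5 weeks Tpm2 fell by 0.99 ± 0.25 in KI (SE, adjusted p = 0.00995). In WT it fell by 1.61 ± 0.23 (SE, adjusted p = 5.45e-05).

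Cnn1 was near the dim limit of 4.60 throughout, so its differences rest on weak signal. Its means lay under that limit in WT at 5 weeks (4.36) and at 44 weeks in KI (4.26) and WT (4.26). Cnn1 passed the filter only through the other groups, and each of its calls sets such a group against one under the limit. Those calls, and the place of Cnn1 in the counts of the 8 genes, are therefore descriptions. Its values were 4.80, 5.14, 5.35 and 4.84 on KI arrays and 5.13, 4.92, 4.85 and 5.52 on WT arrays at 2 weeks, and 4.78, 4.94, 5.27 and 4.85 on KI arrays and 4.28, 4.17, 4.34, 4.18 and 4.85 on WT arrays at 5 weeks. At 44 weeks they were 4.49, 4.18, 4.38 and 4.00 on KI arrays and 4.59, 4.00, 3.94 and 4.49 on WT arrays. WT arrays of 5 weeks were low apart from array 10, while KI arrays of 5 weeks, at 4.78 to 5.27, overlapped KI arrays of 2 weeks, at 4.80 to 5.35. Cnn1 fell by 0.75 ± 0.18 in WT between 2 and 5 weeks (SE, adjusted p = 0.00305). In KI the difference was -0.07 ± 0.19 (SE, 95% interval -0.46 to 0.32, adjusted p = 0.837).

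Tpm1, whose alpha-tropomyosin is made in podocytes and many other cells, stayed apart from the rest of the contractile genes. Its 25 arrays ran from 11.80 to 12.38, a range of 0.57, where the ranges of the other 7 genes ran from 1.58 to 3.26. The 5 against 2 week difference was -0.10 ± 0.09 in KI and 0.04 ± 0.09 in WT (SE, adjusted p = 0.528 in KI and 0.728 in WT). Every group overlapped its neighbour in the order of means.

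Rgs5 was the signalling gene of the set. At 2 weeks it stood at 11.10, 11.19, 11.31 and 11.03 on KI arrays and 11.71, 11.53, 10.97 and 11.24 on WT arrays. At 5 weeks it stood at 10.17, 9.83, 10.15 and 10.43 on KI arrays and 10.89, 9.71, 8.91, 9.10 and 9.96 on WT arrays, and at 44 weeks at 9.27, 9.11, 9.76 and 9.57 on KI arrays and 9.54, 9.27, 8.65 and 9.69 on WT arrays. Again no array of 5 weeks reached the arrays of 2 weeks in the same genotype, and the closest pair in WT was 10.89 on array 6 of 5 weeks against 10.97 on the lowest array of 2 weeks. Rgs5 fell by 1.01 ± 0.30 in KI (SE, adjusted p = 0.0294) and by 1.65 ± 0.29 in WT (SE, adjusted p = 0.000249). The KI call was lost when KI array 19, 20, 21, 23, 24 or 25 was left out, with an adjusted p of up to 0.0886.

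Of the receptors, Notch3 had the widest spread. Its values at 2 weeks were 7.93, 8.27, 7.43 and 8.19 on KI arrays and 8.68, 8.20, 7.64 and 7.84 on WT arrays. At 5 weeks they were 7.28, 7.45, 7.49 and 7.30 on KI arrays and 7.77, 5.56, 5.82, 6.26 and 6.38 on WT arrays, and at 44 weeks 6.32, 6.70, 7.01 and 5.72 on KI arrays and 6.59, 5.42, 6.39 and 6.36 on WT arrays. WT array 6 of 5 weeks lay among the arrays of 2 weeks, and the other 4 WT arrays of that age lay below them all. The difference of 5 against 2 weeks was -0.58 ± 0.37 in KI (SE, adjusted p = 0.319) and -1.73 ± 0.35 in WT (SE, adjusted p = 0.000782). Between 5 and 44 weeks the KI arrays separated fully, with a difference of -0.94 ± 0.37 that missed the threshold (SE, adjusted p = 0.0794).

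Pdgfrb fell in KI between 5 and 44 weeks and in WT in both spans. Its values were 8.99, 8.99, 8.98 and 8.41 on KI arrays and 9.62, 9.11, 8.77 and 8.98 on WT arrays at 2 weeks, and 8.77, 8.56, 8.87 and 8.60 on KI arrays and 8.96, 7.97, 8.31, 8.50 and 8.89 on WT arrays at 5 weeks. At 44 weeks they were 7.99, 7.37, 7.74 and 8.13 on KI arrays and 8.16, 7.59, 7.52 and 7.63 on WT arrays. The KI arrays of 44 weeks lay below all KI arrays of 5 weeks. Between 2 and 5 weeks it fell by 0.59 ± 0.21 in WT (SE, adjusted p = 0.0322), and the KI difference was -0.14 ± 0.22 (SE, adjusted p = 0.722). The WT call was lost without WT array 1, 2, 7, 8 or 9, with an adjusted p of up to 0.133. For 44 against 5 weeks the difference was -0.89 ± 0.22 in KI and -0.80 ± 0.21 in WT (SE, adjusted p = 0.00934 in KI and 0.0114 in WT).

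Pdgfra was dim, and its arrays ran from 4.02 to 6.40. Its means were 5.43 ± 0.46 in KI and 6.00 ± 0.32 in WT at 2 weeks, 4.99 ± 0.40 in KI and 5.08 ± 0.72 in WT at 5 weeks, and 4.85 ± 0.20 in KI and 4.72 ± 0.33 in WT at 44 weeks (SD, n = 4, and 5 for WT at 5 weeks). Neighbouring groups in the order of means all overlapped. It fell by 0.91 ± 0.29 between 2 and 5 weeks in WT (SE, adjusted p = 0.0179), and the KI difference was -0.44 ± 0.30 (SE, adjusted p = 0.37). The WT call was lost without WT array 2 or 8, with an adjusted p of up to 0.0638.

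From 5 to 44 weeks all 8 differences were negative in both genotypes, and 3 of 8 passed in each. In KI these were Tpm2, Pdgfrb and Cnn1, where 16.8% of all genes were called and 8.64% lower. Tpm2 was -1.02 ± 0.25 (SE, adjusted p = 0.00826) and Cnn1 -0.70 ± 0.19 (SE, adjusted p = 0.0153) there, and neither gene's arrays of 44 weeks overlapped those of 5 weeks. Without KI array 25 the Cnn1 call was lost (adjusted p = 0.0589). In WT the 3 were Acta2, Tpm2 and Pdgfrb, where 20.1% of all genes were called and 8.85% lower. Acta2 was -0.49 ± 0.17 (SE, adjusted p = 0.0481) and Tpm2 -0.68 ± 0.23 (SE, adjusted p = 0.0445) there, both close to the threshold and with overlapping arrays. The medians were -0.71 for the 8 genes and -0.01 for all genes in KI, and -0.40 for the 8 genes and 0.05 for all genes in WT. Of the 2005 genes called in KI 971 were higher, and after quantile normalization 769 of 2140 were. Of the 2408 called in WT 1349 were higher, and after quantile normalization 898 of 2409 and after median centring 803 of 2437 were. For WT the count of members fell to 0 when only the arrays compared were fitted. Leaving out array 19, 21 or 22 (KI, 2 weeks), 23 (KI, 5 weeks), 6 (WT, 5 weeks) or 15, 17 or 18 (WT, 44 weeks) cut it to 1.

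**Figure D2:**
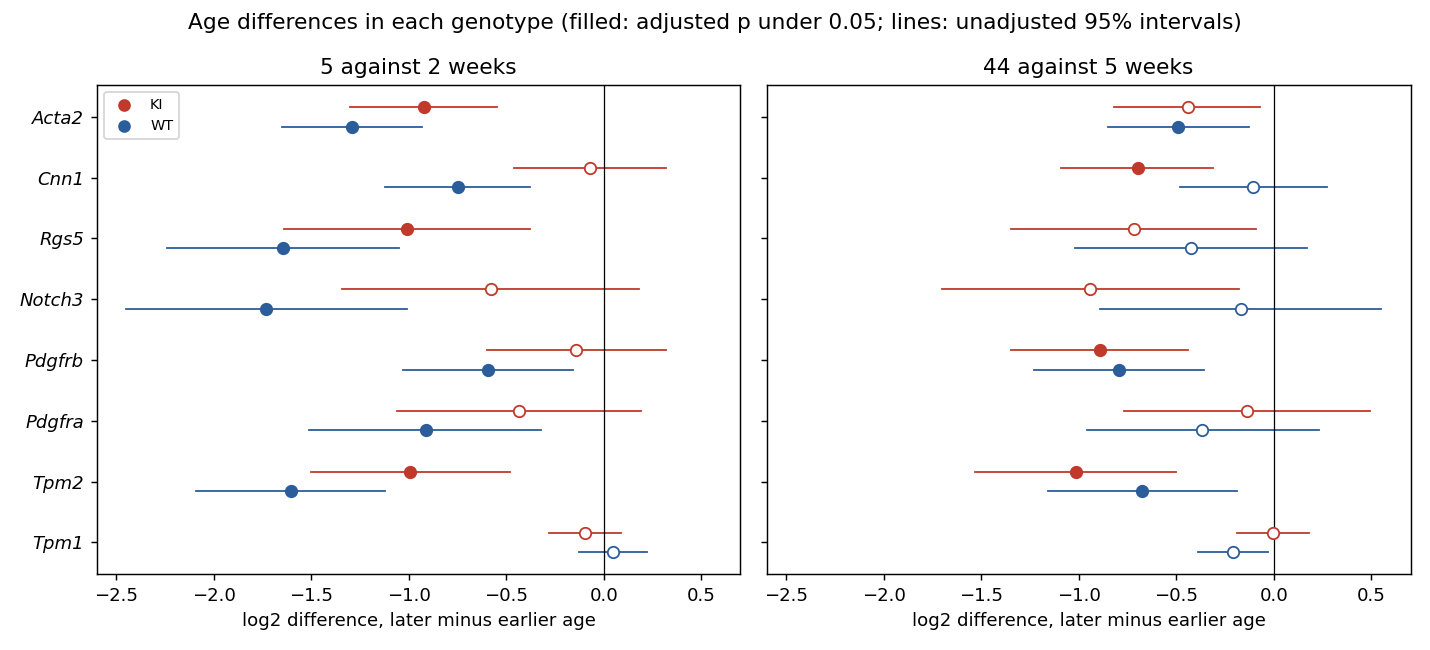
Log2 differences of each gene between ages (horizontal axes, later minus earlier age), in KI (red, upper mark) and WT (blue, lower mark), with 5 against 2 weeks on the left and 44 against 5 weeks on the right; filled marks passed at an adjusted p under 0.05 and lines are unadjusted 95% intervals. The 7 filled WT marks and 3 filled KI marks lie below 0 on the left, and 3 of each on the right.

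Whether the fall from 2 to 5 weeks differed between KI and WT was tested as the change of the genotype effect between those ages. None of the 8 genes passed in limma: the lowest adjusted p was 0.178, 2 had an unadjusted p under 0.05, and 0.0251% of all genes, or 3, were called. The change between 5 and 44 weeks gave none either, with a lowest adjusted p of 0.216, 1 gene with an unadjusted p under 0.05 and 0.0% of all genes called. The first outcome, and the number of all genes called for both changes, depended on the weight of single arrays. Array weights gave 3 of the 8 genes and 2441 of all genes for the change from 2 to 5 weeks, and leaving out WT array 10 gave 1 of the 8 and 1521 of all genes. For the change from 5 to 44 weeks 2041 genes were called with array weights and 1561 without WT array 10, with none of the 8 among them. With all arrays weighted equally, the larger number of WT than KI calls between 2 and 5 weeks is not a shown difference between genotypes.

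WT arrays 7, 8 and 9 of 5 weeks gave the lowest values of Acta2, Rgs5 and Notch3 in that group, so leaving them out makes the fall of these genes smaller by construction and leaves 2 arrays. Without them, 3 of the 7 falls passed. Over all 11968 genes 991 were called in that fit, 277 of them higher, against 4053 called with all arrays. Acta2 was -1.01 (adjusted p = 0.00933), Rgs5 -0.94 (adjusted p = 0.0458) and Tpm2 -1.11 (adjusted p = 0.0175). Differences that did not pass were -1.02 for Notch3 (adjusted p = 0.109), -0.55 for Cnn1, -0.47 for Pdgfra and -0.19 for Pdgfrb.

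KI and WT did not differ detectably at 2 weeks in any of the 8 genes. None was called by limma, none had an unadjusted p under 0.05, and the lowest adjusted p was 0.893. Over all genes 0.0% were called and 613 had an unadjusted p under 0.05. The 95% intervals still allow sizeable differences, from -0.89 to 0.63 for Notch3 and from -0.27 to 0.48 for Acta2.

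At 5 weeks 3 of 8 genes were higher in KI, namely Notch3, Tpm2 and Cnn1, where 22.0% of all genes were called and 14.3% higher. Notch3 averaged 7.38 ± 0.11 in KI and 6.36 ± 0.86 in WT (SD, n = 4 and 5), a difference of 1.02 ± 0.35 or 2.03-fold (SE, adjusted p = 0.0398). Tpm2 averaged 10.55 ± 0.25 in KI and 9.76 ± 0.51 in WT, a difference of 0.80 ± 0.23 or 1.74-fold (SE, adjusted p = 0.0205). Cnn1 averaged 4.96 ± 0.22 in KI and 4.36 ± 0.28 in WT, a difference of 0.60 ± 0.18 or 1.52-fold (SE, adjusted p = 0.0222). The Acta2 difference of 0.47 ± 0.17 did not pass (SE, adjusted p = 0.0543). For each of the 8 genes KI and WT arrays overlapped, and for Notch3 WT array 6, at 7.77, lay above all 4 KI arrays while the other 4 WT arrays lay below them. The median was 0.45 for the 8 genes and 0.06 for all genes. Of the 2638 genes called, 1710 were higher in KI, and after median centring 1376 of 2759 were.

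Calls at 5 weeks changed with the arrays used. Taking out WT arrays 7, 8 and 9, which hold the lowest WT values of several of these genes, shrinks the differences by construction and leaves 2 WT arrays. Without them none of the 8 genes passed, and the differences were 0.30 for Notch3 (adjusted p = 0.782), 0.30 for Tpm2 (adjusted p = 0.666), 0.40 for Cnn1 (adjusted p = 0.493) and 0.19 for Acta2, while 1 gene of 11968 was called at all. Leaving out WT array 7 or WT array 9 alone also ended all 3 calls, and the Notch3 call was lost without any one of KI arrays 23, 24, 25 and 26 or WT arrays 7, 8 and 9. There was 1 call without KI array 23, 25 or 26 and 2 without WT array 8, and there were 4 calls without WT array 10, WT array 16 or WT array 18 and 5 without WT array 6. Fitting only the arrays of 5 weeks gave 0.

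At 44 weeks all 8 differences were positive and none was called, with 0.0251% of all genes called. Acta2 was 10.73 ± 0.21 in KI and 10.22 ± 0.36 in WT (SD, n = 4 each), a difference of 0.52 ± 0.18 (SE, adjusted p = 0.695), and it alone had an unadjusted p under 0.05. The Tpm2 difference was 0.46 ± 0.25 (SE, adjusted p = 0.82). The median was 0.14 for the 8 genes and 0.01 for all genes. Averaged over the 3 ages, Acta2 was higher in KI by 0.36 ± 0.10 (SE, adjusted p = 0.0437) and Tpm2 by 0.48 ± 0.14 (SE, adjusted p = 0.0483), 2 of 8 genes, where 5.32% of all genes were called and 3.99% higher. All in all 478 of 637 calls were higher in KI, and after quantile normalization 365 of 591 were. Neither call held without WT arrays 7, 8 and 9, where the differences were 0.27 and 0.31 (adjusted p = 0.271 and 0.297), and both were lost when any 1 of 16 single arrays was left out, namely KI arrays 19 to 23, 26 and 31 to 33 and WT arrays 2, 3, 7, 8, 9, 17 and 18.

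**Figure D3:**
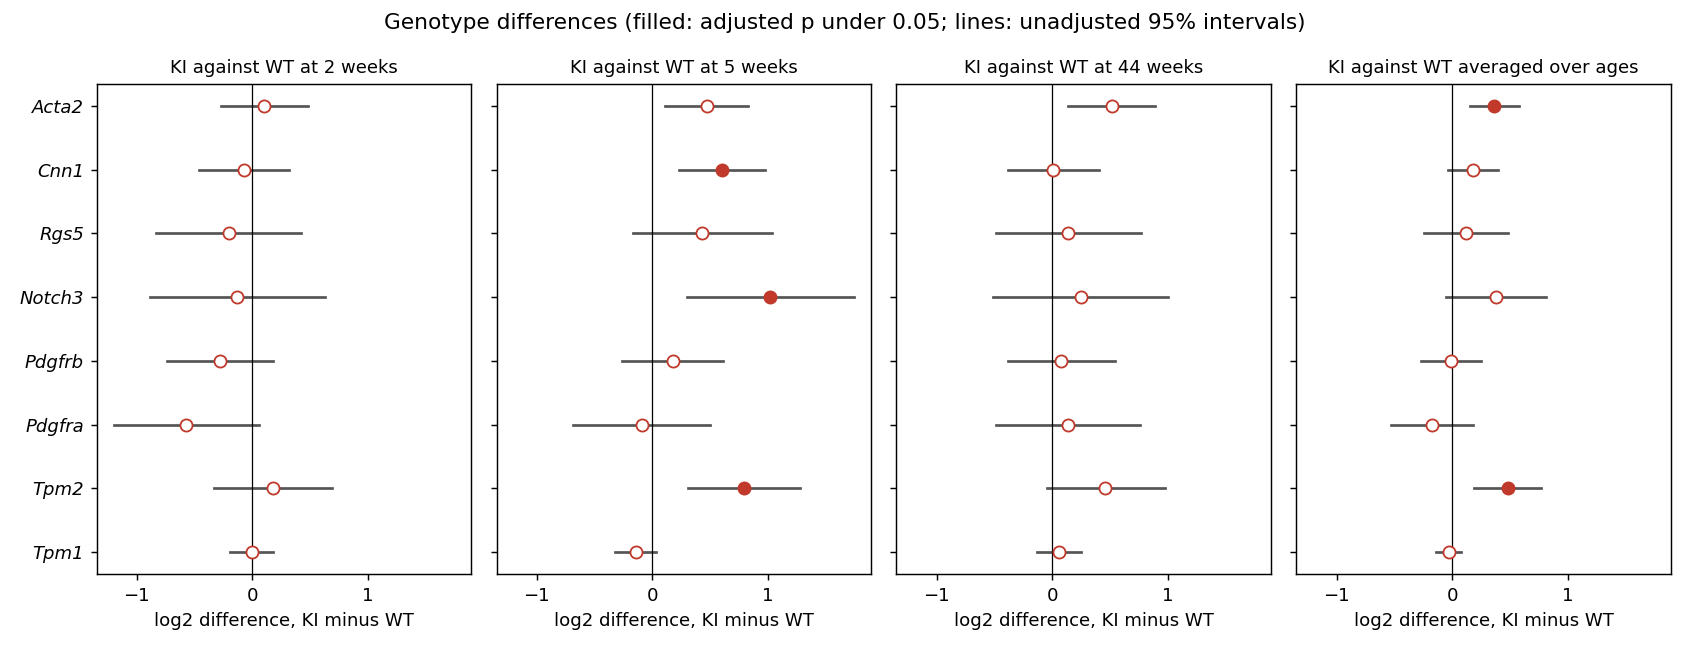
Log2 differences of KI minus WT (horizontal axes) for each gene at 2, 5 and 44 weeks and averaged over ages, from left to right; filled marks passed at an adjusted p under 0.05 and lines are unadjusted 95% intervals. Filled marks are Cnn1, Notch3 and Tpm2 at 5 weeks and Acta2 and Tpm2 in the average.

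Further probe sets of the same genes bore on these values. The 3 other probe sets of Rgs5 all fell in WT between 2 and 5 weeks, with log2 differences of -1.41, -1.64 and -3.17, and the other probe set of Notch3 fell by 1.43. For 44 against 5 weeks in KI the other Notch3 probe set fell by 1.23 and passed (adjusted p = 0.0293), where the brightest did not. At 5 weeks that probe set gave a KI minus WT difference of 0.80 (adjusted p = 0.104). Tpm2 had 2 other bright probe sets, which fell by 1.65 and 1.30 in WT between 2 and 5 weeks and gave 0.79 (adjusted p = 0.0283) and 0.30 (adjusted p = 0.19) for KI against WT at 5 weeks. For KI against WT averaged over ages they gave 0.47 (adjusted p = 0.0597) and 0.19 (adjusted p = 0.231). The Tpm2 call in the average therefore rests on the brightest probe set. The remaining probe sets of Acta2 and Tpm2 averaged 3.49 and 3.61, under the dim limit. Probe sets disagreed for Rgs5 and Tpm1. For 44 against 5 weeks in KI one Rgs5 probe set gave 0.44, where the brightest gave -0.72, and neither passed. A Tpm1 probe set with a mean of 11.02 rose by 0.53 in WT from 5 to 44 weeks (adjusted p = 0.0222), where the brightest gave -0.21 ± 0.09 (SE, adjusted p = 0.0873). Each probe set may read a different set of Tpm1 transcripts, which was not tested.

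All genes but Tpm1 correlated with each other over the 25 arrays, at Pearson r of 0.54 to 0.96, as a description that shares the age groups and has no p. With group means subtracted the same pairs ran from 0.04, for Notch3 and Tpm2, to 0.68, for Acta2 and Tpm2, and Acta2 and Cnn1 gave 0.10. Pearson r between Acta2 and Tpm2 was 0.96, and 0.68 once group means were subtracted. Acta2 and Rgs5 gave 0.90, and 0.50 with group means subtracted. Pdgfrb and Pdgfra gave 0.73, and 0.55 with group means subtracted. Tpm1 correlated with the other 7 at r of -0.04 to 0.31. With group means subtracted it gave -0.53 with Pdgfrb and -0.52 with Cnn1.

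Genes outside the set with the most similar values were found by Pearson r over the 25 arrays among all genes tested. Tpm2 was closest to Myl9, a regulatory light chain of smooth muscle myosin, at r = 0.985, and after group means were subtracted at 0.913. Acta2 was next to Col4a1 and Col4a2, the paired alpha chains of basement membrane collagen IV, at r = 0.952 and 0.942 after Tpm2 itself. For Rgs5 the closest were Sh3kbp1, Lhfp and Syt13 (r = 0.957, 0.954 and 0.954), and for Notch3 they were Mn1, Fscn1 and Pbk (r = 0.91, 0.909 and 0.903). Pdgfrb was closest to Marcksl1, Gng11 and Col1a1 (r = 0.945, 0.935 and 0.933), Pdgfra to Gypc, Lhfp and Itga8 (r = 0.866, 0.825 and 0.823), Cnn1 to Trpc4ap, Rab34 and Clec3b (r = 0.90, 0.885 and 0.882) and Tpm1 to Smndc1, Ctdspl2 and Trappc13 (r = 0.853, 0.849 and 0.843).

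Other contractile and pericyte genes also fell between 2 and 5 weeks, when 8.29% of all genes were lower in KI and 21.7% in WT. Of 13 further smooth muscle contractile genes tested, 8 fell and 1 rose between 2 and 5 weeks in WT (median -0.67), and 4 fell and none rose in KI (median -0.17). Myl9 was -0.80 ± 0.23 in KI and -1.68 ± 0.22 in WT (SE, adjusted p = 0.0233 in KI and 1.85e-05 in WT), and Tinagl1, a matrix protein gene, -1.48 ± 0.17 in KI and -1.43 ± 0.16 in WT. Of 15 pericyte, mesangial and renin cell genes, 5 fell in KI and 11 in WT, and none rose. Mcam is in both lists, so its fall in KI (-0.64 ± 0.20, SE, adjusted p = 0.0332) is counted in each. For 44 against 5 weeks 5 of the 13 contractile genes fell and 1 rose in KI and 1 fell in WT, and 3 of the 15 pericyte genes fell in KI and 2 in WT, with 8.64% of all genes lower in KI and 8.85% in WT. Between 2 and 5 weeks those that fell in WT included Itga8, the mesangial integrin alpha 8 (-1.52 ± 0.29, SE, adjusted p = 0.000596), and Ndufa4l2 (-2.02 ± 0.33) and Cox4i2 (-1.16 ± 0.18), both mitochondrial subunit genes used as pericyte markers. At 5 weeks 4 of the 13 contractile genes were higher in KI than WT and 1 lower (median 0.56), among them Myl9 by 0.95 ± 0.22 (SE, adjusted p = 0.00618), the intermediate filament gene Des by 1.28 ± 0.37 (SE, adjusted p = 0.0182) and the laminin receptor gene Itga7 by 0.62 ± 0.12 (SE, adjusted p = 0.00274). Of the 15 pericyte genes only Ndufa4l2 was higher there, by 1.07 ± 0.33 (SE, adjusted p = 0.0268). Over all genes 22.0% were called at that age and 14.3% were higher, a larger share than 1 of 15. Myh11, the smooth muscle myosin heavy chain, was 1.92 ± 0.53 higher in KI averaged over ages (SE, adjusted p = 0.0398), but its WT arrays alone ran from 5.03 to 11.22, and unlike the members it averaged 8.99, 10.65 and 9.58 in KI and 7.54, 7.56 and 8.37 in WT at 2, 5 and 44 weeks.

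Between 2 and 5 weeks, genes upstream and downstream of the receptors gave fewer calls per list than the contractile and pericyte lists. That difference was not tested, and it did not hold in every other comparison. Of 8 PDGF ligand and signalling genes, Pdgfb, the ligand of the beta receptor, fell by 0.99 ± 0.18 in WT between 2 and 5 weeks (SE, adjusted p = 0.000299) and was 0.55 ± 0.18 higher in KI than WT at 5 weeks (SE, adjusted p = 0.0303). At that age Pik3r1, a regulatory subunit of PI3 kinase, was lower in KI by 0.63 ± 0.16 (SE, adjusted p = 0.0101), so 1 gene of the 8 was higher and 1 lower (median -0.13). Over all genes 22.0% were called at that age and 14.3% were higher, so these counts lie near the share of all genes. Between 2 and 5 weeks the receptor-like Pdgfrl fell by 1.46 ± 0.22 in WT (SE, adjusted p = 7.06e-05), the adaptor Grb2 rose by 0.29 ± 0.10, and 2 of the 8 rose and 2 fell in WT over that span. Among 21 Notch pathway genes 2 fell and none rose in WT between 2 and 5 weeks: Adam10, the protease that cuts Notch receptors (-0.54 ± 0.13, SE, adjusted p = 0.00252), and Rfng, a glycosyltransferase that tunes ligand choice (-0.78 ± 0.18, SE, adjusted p = 0.00286). Over all genes 21.7% were lower there, a larger share. Heyl, a Notch target in vascular smooth muscle, fell between 5 and 44 weeks, with differences of -1.20 ± 0.24 in KI and -1.56 ± 0.23 in WT (SE, adjusted p = 0.00234 in KI and 0.000129 in WT). The target gene Hes1 fell by 0.73 ± 0.20 in WT over that span (SE, adjusted p = 0.0131), while Rfng rose by 0.60 ± 0.18 (SE, adjusted p = 0.0273). Of the 21 genes 2 fell and 1 rose in WT, and 2 fell and none rose in KI. Over all genes 8.85% were lower in WT and 8.64% in KI, so these shares lie near those of all genes.

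Regulators of the contractile programme were mixed. Of 21 SRF and myocardin regulators 8 fell and 2 rose between 2 and 5 weeks in WT (median -0.36), led by Crip2 (-1.13 ± 0.15), Crip1 (-1.54 ± 0.25), both LIM proteins, and Tgfb1 (-1.07 ± 0.22, SE, adjusted p = 0.00087). In KI 3 of the 21 fell over the same ages, when 8.29% of all genes were lower in KI and 21.7% in WT. Myocd, which encodes myocardin, averaged 4.93, 4.73 and 4.33 in KI and 5.00, 4.55 and 4.30 in WT at 2, 5 and 44 weeks, close to the dim limit. Srf averaged 8.89, 8.99 and 8.66 in KI and 9.14, 8.78 and 8.73 in WT. At 5 weeks Crip1 was 1.36 ± 0.25 and Crip2 0.63 ± 0.15 higher in KI (SE, adjusted p = 0.00239 and 0.0062), and 2 of the 21 genes were lower. Over all genes 22.0% were called at that age.

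The wider families of the members held both rises and falls. Of 12 further tropomyosin, tropomodulin, calponin and actin genes 2 rose and 2 fell in WT between 2 and 5 weeks (median 0.04): the tropomodulins Tmod2 and Tmod3, which cap actin filaments, by 1.26 ± 0.35 and 0.40 ± 0.14 upward, and calponin 2 (Cnn2, also counted among the 13 contractile genes) by 0.66 ± 0.15 downward among them. In KI 1 of the 12 rose and none fell. Of 10 further regulators of G protein signalling 4 fell and 1 rose in WT between 2 and 5 weeks, the rise being Rgs2 (0.67 ± 0.13, SE, adjusted p = 0.000707). Over all genes 21.7% were lower in WT over those ages. At 5 weeks Rgs9, Rgs3 and Rgs10 were higher in KI by 0.42 ± 0.11, 0.78 ± 0.23 and 0.90 ± 0.28 (SE, adjusted p = 0.0124, 0.02 and 0.0261). These were 3 of the 10, where 14.3% of all genes were higher.

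Markers of other cell types moved alongside the members, and their part in these results was not tested. Fibroblast genes were lowest at 44 weeks: the mean level of the list of 11 was 8.08, 7.66 and 6.20 in KI and 8.36, 7.25 and 6.31 in WT at 2, 5 and 44 weeks, and between 2 and 5 weeks none of the 11 was called in KI while 7 fell and 1 rose in WT. From 5 to 44 weeks 7 fell in KI (median -1.71) and 4 in WT (median -0.93), where 8.64% and 8.85% of all genes were lower. Col1a1, whose promoter element drives the ribosome tag, averaged 11.18, 10.31 and 6.98 in KI and 11.64, 9.22 and 6.98 in WT. Col1a1 fell by 2.42 ± 0.39 in WT between 2 and 5 weeks (SE, adjusted p = 0.000133), and the differences of 44 against 5 weeks were -3.33 ± 0.41 in KI and -2.24 ± 0.39 in WT (adjusted p = 4.27e-05 in KI and 0.000666 in WT). Podocyte genes went the other way between 2 and 5 weeks, when 6 of 17 rose in KI and none fell, and 13 rose and 1 fell in WT. Of all 11968 genes over that span, 646 were called higher in KI and 1457 in WT, while 8.29% were lower in KI and 21.7% in WT.

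At 5 weeks, where the 3 members were higher in KI, genes of further cell types were called higher too, beside 14.3% of all genes. The endothelial list had 9 of 18 genes higher and none lower, the proximal tubule list 3 of 16, the list of loop, distal tubule and collecting duct 5 of 19 and the leukocyte list 6 of 17, with none lower in any of them, and a share such as 3 of 16 lies near that of all genes. The podocyte list had 1 of 17 higher and 6 lower. The mean level of the endothelial list ran from 7.10 to 7.48 on KI arrays and from 6.01 to 6.90 on WT arrays, and that of the proximal tubule list from 10.28 to 10.69 on KI arrays and from 9.28 to 10.25 on WT arrays. The leukocyte list ran from 6.17 to 6.32 on KI arrays and from 5.28 to 6.04 on WT arrays, and the loop and distal list from 7.77 to 8.04 on KI arrays and from 6.85 to 7.63 on WT arrays. The defining markers Pecam1 of endothelium, Umod of the loop and Ptprc of leukocytes averaged 5.56, 11.35 and 5.50 in KI and 4.88, 10.61 and 5.32 in WT at that age. Of 2 erythroid genes tested 1 was higher in KI, namely Slc4a1, by 0.90 ± 0.33 (SE, adjusted p = 0.0497). The other, the globin gene Hba-a1, was not called and averaged 8.09 in KI and 6.93 in WT, with WT arrays from 6.17 to 8.58. The 3 prime minus 5 prime signal of the actin control probe sets, a measure of RNA length, was 1.18 ± 0.15 in KI and 1.53 ± 0.06 in WT (SD, n = 4 and 5). Arrays did not overlap there, at 0.99 to 1.33 in KI and 1.47 to 1.63 in WT. WT arrays of 2 weeks, at 1.07 to 1.30, also lay below all WT arrays of 5 weeks. The Gapdh control probe sets went the other way at 5 weeks, at 1.48 ± 0.20 in KI and 1.22 ± 0.39 in WT, with overlapping arrays. For Gapdh, WT stood at 1.66 ± 0.13 at 2 weeks (SD, n = 4), also overlapping WT of 5 weeks. The part of RNA length in the differences between groups was not tested.

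**Figure D4:**
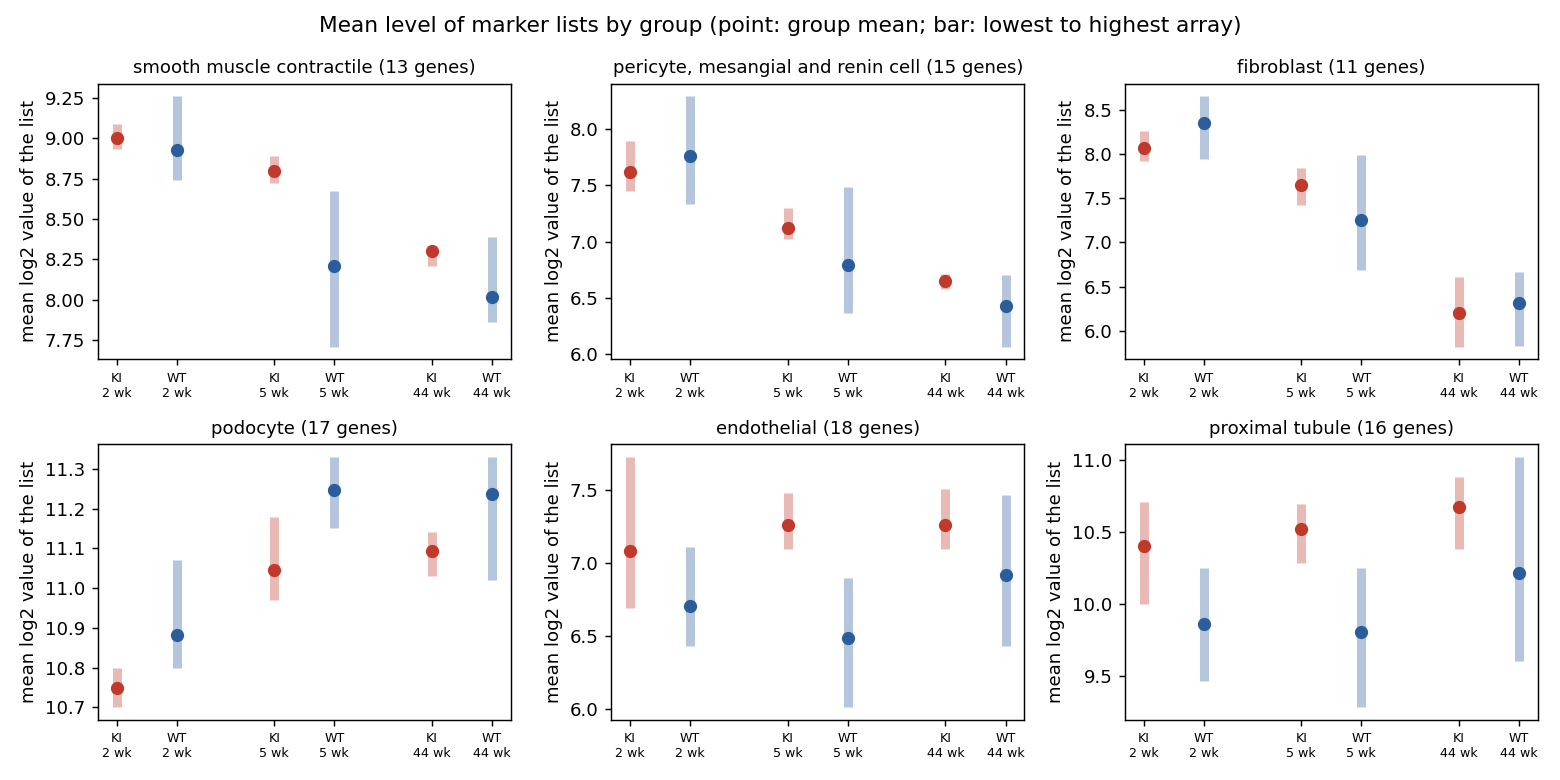
Mean log2 level of 6 marker lists (vertical axes, a separate scale for each list) in KI (red) and WT (blue) at 2, 5 and 44 weeks; points are group means and bars run from the lowest to the highest array. The smooth muscle, pericyte and fibroblast lists are lowest at 44 weeks, the podocyte list is lowest at 2 weeks, and at 5 weeks the KI bars of the smooth muscle, endothelial and proximal tubule lists lie above the WT bars.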

How the data were processed

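The authors deposited a table of log2 values, one for each probe set on each array of an Affymetrix mouse chip that has no mismatch probes. Per the labels, polysomal RNA went through 1 round of NuGEN WT-Ovation amplification and Encore biotin labelling. The sources used here do not give the summarization or normalization behind these values. They ran from 1.86 to 13.62 and the array medians from 4.82 to 4.99. An array has no read depth, so precision is set by how many arrays a group has.

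Groups came from titles and source names. Symbols are those of the platform annotation, brought up to date by Entrez ID (99.3% matched): of 45141 probe sets 28898 had 1 symbol, 551 several, and 15692 were not in the annotation. The brightest probe set per gene was kept, and genes under 4.603 (the lowest 30% by mean) were left out, leaving 11968. limma 3.58.1 in R 4.3.3 (lmFit, eBayes) fitted 6 group means over 25 arrays (19 residual and 3.05 prior degrees of freedom), with Benjamini-Hochberg adjustment over all genes tested in each of 10 comparisons. The fit was tested on simulated data. No count model was used, since log2 array values are not counts.

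The 9 members and all lists were chosen with earlier results of these data known, as was leaving out WT arrays 7, 8 and 9. The rule names all members, up to 3 genes of a list by p in a comparison in which any passed, and the 3 genes most like each member; Myh11, Col1a1, Srf, Myocd and other defining markers are given as levels. In list counts, genes of the set itself are left out. Some genes stand in several lists, such as Mcam (contractile and pericyte) and Fhl2 (pericyte and SRF regulators), so the lists are not independent. Promoters came from RefSeq tables (7 members matched and searched, 250 bases each), and those of Acta2 and Tpm2 are shown. Alternatives were quantile normalization, median centring, no or a 50% dim filter, the mean of all probe sets, array weights, a trended robust prior, other probe sets, fitting only the arrays compared, and leaving arrays out.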

Additional observations from a re-analysis of the deposited data

Results flagged for a closer look

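In 48 checks of 8 genes in 6 groups, 2 values stood far from the rest of their group, and chance flags about 1 group in 20. The highest WT array of 5 weeks for Cnn1, array 10, was at 4.85, where the nearest of the other arrays was at 4.34. The lowest KI array of 2 weeks for Pdgfrb, array 22, was at 8.41, where the nearest of the other arrays was at 8.98.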

How the results depend on the processing

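Of 21 member differences called, all 21 kept their direction under each setting that kept the brightest probe set and tested them (17 of them with the 50% dim filter) and with the mean of all probe sets, and with 1 of 25 arrays left out 14 to 20 stayed called. With only the arrays compared 13 stayed called, without WT arrays 7, 8 and 9 12, with no dim filter 16, with the mean of all probe sets 17, after quantile normalization 18 and after median centring 19. Counts of the 8 genes called changed as follows. For KI against WT at 5 weeks array weights gave 5, and 0 were called with only the arrays compared and without WT arrays 7, 8 and 9. At 44 weeks array weights gave 1. For the average over ages the count was 1 after quantile normalization and with the mean of all probe sets, and 0 after median centring, with no dim filter and without WT arrays 7, 8 and 9. For 5 against 2 weeks in WT it was 3 without those arrays, and for 44 against 5 weeks in WT 1 with no dim filter and 0 with only the arrays compared. For 44 against 5 weeks in KI array weights, only the arrays compared, and leaving out those WT arrays gave 5 each. For the change of the genotype effect from 2 to 5 weeks array weights gave 3. With single arrays left out the counts ran from 0 to 0 for KI against WT at 2 weeks, 0 to 5 at 5 weeks, 0 to 0 at 44 weeks and 0 to 2 in the average. They ran from 5 to 7 (5 against 2 weeks) and 1 to 3 (44 against 5 weeks) in WT, 2 to 3 and 2 to 5 in KI, and 0 to 1 and 0 to 0 for the changes of the genotype effect. The causes were not tested.

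Differences that changed sign in these settings were uncalled with all arrays. With array weights they were 0.057 for Notch3 and 0.018 for Tpm1 (KI against WT, 2 weeks), 0.11 for Pdgfra (5 weeks), -0.022 for Cnn1 and -0.014 for Pdgfra (44 weeks), 0.086 for Pdgfrb (average), and 0.026 for Cnn1, 0.11 for Rgs5 and 0.0095 for Notch3 (44 against 5 weeks, WT). Without WT arrays 7, 8 and 9 they were -0.28 for Rgs5 and -0.23 for Pdgfrb (5 weeks), -0.12 for Rgs5 and 0.0051 for Tpm1 (average), and -0.057 for Tpm1 (5 against 2 weeks, WT). With the mean of all probe sets Tpm1 was -0.068 (44 weeks), 0.15 (44 against 5 weeks, WT) and 0.30 (44 against 5 weeks, KI), and after quantile normalization 0.020 in the last.

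Other probe sets gave opposite signs to the brightest, including for called Acta2 and Tpm2 differences, where the other probe set was dim. They gave -0.0062, 0.12 and 0.039 for Acta2 (44 weeks; 44 against 5 in WT; 5 against 2 in KI) and -0.079 for Tpm2 (5 weeks). Rgs5 had 0.083 and 0.075 (2 weeks), -0.0043 (5 weeks), -0.10 and -0.19 (44 weeks), 0.12 (44 against 5 in WT) and 0.44 (44 against 5 in KI). Tpm1 had 0.034 (2 weeks), 0.19 (5 weeks), -0.16 and -0.10 (44 weeks), -0.24 and 0.011 (5 against 2 in WT and in KI), 0.53 and 0.12 (44 against 5 in WT) and 0.17 and 0.73 (44 against 5 in KI).

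With single arrays left out, signs changed in these ranges. For KI against WT at 2 weeks Cnn1 ran from -0.18 to 0.066, Notch3 from -0.28 to 0.063 and Tpm1 from -0.045 to 0.024, and at 5 weeks Pdgfra from -0.36 to 0.055. At 44 weeks Cnn1 ran from -0.098 to 0.12, Rgs5 from -0.075 to 0.27, Notch3 from -0.011 to 0.48, Pdgfrb from -0.031 to 0.22, Pdgfra from -0.0089 to 0.26 and Tpm1 from -0.0019 to 0.094. Pdgfrb ran from -0.055 to 0.047 in the average. Between ages Cnn1 ran from -0.22 to 0.017 and Notch3 from -0.37 to 0.19 (44 against 5 in WT), Cnn1 from -0.18 to 0.032 (5 against 2 in KI), and Pdgfra from -0.25 to 0.053 and Tpm1 from -0.052 to 0.030 (44 against 5 in KI). No paired analysis was possible because array numbers are not shared between groups.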
